A study of Mus musculus with 15 samples.

Results

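Pancreatic ductal adenocarcinoma (PDAC) tumours in which myofibroblasts had been targeted early were compared with tumours in which the same targeting began late. The 6 arrays of this comparison were chosen by their titles out of 15 in the series. They are 3 early ablation arrays, from mice given ganciclovir (GCV) at the stage of pancreatic intraepithelial neoplasia (PanIN, the precursor lesion of PDAC), and 3 late ablation arrays, from mice given it at the PDAC stage. A further 3 early ablation control and 3 late ablation control arrays, from mice that received no GCV, were used beside them. All 12 tumours were positive for the αSMA-tk transgene and of mixed background (C57BL/6 and Balb/c), so the controls carry the transgene too. The alleles that drive the tumours, the age of the mice and the length of GCV treatment are not given in the sources used here. Whether every array comes from its own mouse is not stated, and the p-values therefore reflect array-to-array spread, which may be technical. Of 29453 gene features on the array, 13282 were detected (detection p-value below 0.05) on 3 or more of the 6 ablated arrays and were analysed, and 10740 of them carry a gene symbol.

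Herpes virus thymidine kinase (tk) phosphorylates GCV into a compound that kills dividing cells. In αSMA-tk mice the kinase is under the control of regulatory sequence of Acta2, which encodes alpha smooth muscle actin (αSMA) and which myofibroblasts, vascular smooth muscle and some pericytes use. The direct targets are cells that use this sequence and divide, so quiescent fibroblasts, fibroblasts without αSMA and dividing tumour cells are not among them. Indirect effects on other cells were not tested. In PDAC, fibroblasts and myofibroblasts form a dense stroma of collagen and glycoproteins around ducts, vessels and immune cells.

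The bases just upstream of the mouse Acta2 gene are shown because this gene's regulatory sequence defines which cells the transgene targets; the sequence of the construct itself is not shown. RefSeq's promoter table (GRCm38.p6) places these 250 bases at chr19:34255374-34255623 on the minus strand. The capitals mark CArG-like boxes, the kind of element that serum response factor binds, searched as CCNNNNNNGG with at least 5 of the 6 middle letters A or T on both strands.
Acta2: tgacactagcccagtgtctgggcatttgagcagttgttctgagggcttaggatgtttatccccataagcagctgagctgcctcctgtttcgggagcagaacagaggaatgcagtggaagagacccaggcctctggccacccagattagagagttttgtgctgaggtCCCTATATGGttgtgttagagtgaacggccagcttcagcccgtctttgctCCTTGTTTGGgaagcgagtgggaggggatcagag
The 2 boxes do not overlap and begin 84 and 34 bases before the annotated start. At least 1 such box stood in 8.59% of the 32851 promoter windows of this length in the table, and at least 2 stood in 0.67%.

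Acta2 itself did not separate the early from the late ablated tumours. Its normalized log2 signal was 10.98, 13.01 and 13.58 on the 3 early ablation arrays and 12.55, 12.22 and 10.56 on the 3 late ablation arrays. Early arrays 2 and 3 were the highest, early array 1 and late array 3 the lowest, and the groups overlapped. The mean was 0.75 higher in early ablation (SE 0.775, limma adjusted p = 0.832), and an exact two-sided permutation test gave p = 0.5, where 3 arrays against 3 cannot go below 0.1. With 1 array left out at a time, the difference ranged from 0.14 to 1.52. Of 3 other detected Acta2 probes, 3 differed in the same direction. In the controls the early minus late difference was -0.04 (exact permutation p = 1).

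No gene passed the test between early and late ablation. The limma fit over 13282 features called 0 at an adjusted p under 0.05 (0% of features), the smallest adjusted p was 0.533, and 1019 features (7.67%) had an unadjusted p under 0.05, where 664 would be counted if p-values were uniform. Of these, 536 (4.04%) averaged higher in early and 483 (3.64%) higher in late ablation. The 3 early and 3 late values did not overlap for 1532 features (11.5%), 767 higher early (5.77%) and 765 higher late (5.76%). The median difference over all features was 0.02 and the median SE 0.273, both on the log2 scale. When arrays were scaled to equal medians instead of equal distributions, the median difference became 0.11 and 79.6% of the features at unadjusted p under 0.05 averaged higher early, against 52.6% in the main fit. Median raw signals of the 12 arrays ran from 96.2 to 140.7. More probes were detected on the early ablation arrays (41.3% to 43.5%) than on the late ablation arrays (39.5% to 40.8%), without overlap, and the part of this in the differences below was not tested. Rank correlations among the 6 ablated arrays were 0.912 to 0.964. Late ablation array 1 resembled late control array 1 (0.977) more than any ablated array.

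The 12 genes with the smallest p-values among those higher in early ablation differed 1.96-fold or more where both groups were detected. Tbxas1, thromboxane synthase of platelets and macrophages, stood at 7.75, 7.44 and 7.15 in early and 6.12, 5.98 and 5.97 in late ablation, a 2.67-fold difference (log2 1.42, SE 0.236, adjusted p = 0.533). All 3 early values lay above all 3 late values. Aqp1, a water channel of endothelium and epithelium, stood at 10.95, 10.52 and 10.17 against 9.12, 9.04 and 8.24, a 3.35-fold difference. C4a, of the complement component 4 family, stood at 11.15, 10.74 and 10.19 against 9.12, 9.25 and 9.24 (2.82-fold). C4a and C4b are near-identical, so their probes may not tell them apart. The others were Ifi207 of the interferon-inducible PYHIN family (2.93-fold), Kcnab2, a potassium channel beta subunit (2.63-fold), Mns1 of sperm flagella and cilia, Cyth4, an Arf exchange factor of blood cells (2.48-fold), Fcgrt, the neonatal Fc receptor (2.48-fold), Higd1b of pericytes, Slc1a3, a glutamate transporter, Rassf2, a Ras-association protein (2.02-fold), and Lcp1, the leukocyte actin bundler L-plastin (1.96-fold). Slc1a3, Mns1 and Higd1b were not detected on any late ablation array. On the background-corrected scale they were at least 1.77-fold, 2.19-fold and 1.72-fold higher early. Such a bound takes an undetected signal as the lowest detected signal of its array and leaves out the spread between arrays. It also depends on the background correction, without which the log2 differences of these 3 genes were 0.34, 0.47 and 0.37.

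**Figure D1:**
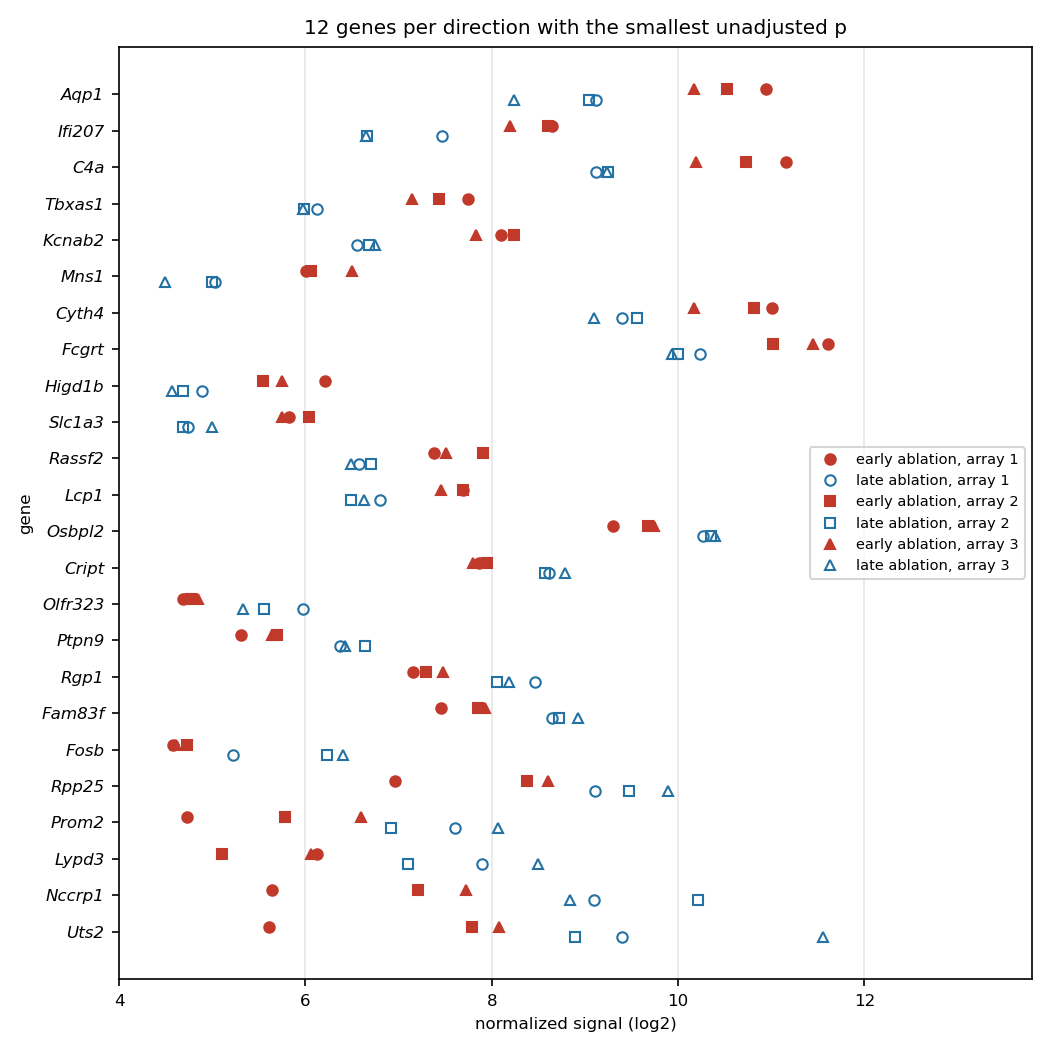
Normalized log2 signal (x axis) of the 12 genes per direction with the smallest unadjusted p (y axis, ordered by difference), with filled red symbols for the 3 early ablation arrays and open blue symbols for the 3 late ablation arrays. The groups do not overlap for any of these 24 genes, as 11.5% of all features do not, and the genes were chosen by this comparison.

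The 12 genes with the smallest p-values among those higher in late ablation differed 1.70-fold or more in the main fit where both groups were detected. Each of these 12 differences, too, was smaller without background correction. On the log2 scale Lypd3 went from -2.07 to -1.10, Prom2 from -1.83 to -0.89, Ptpn9 from -0.93 to -0.37 and Uts2 from -2.79 to -2.10. Nccrp1, an F-box-associated protein of stratified epithelium, stood at 5.65, 7.21 and 7.72 in early and 9.10, 10.21 and 8.84 in late ablation, a 5.75-fold difference (log2 -2.52, SE 0.532, adjusted p = 0.533). Lypd3, a GPI-anchored protein of squamous epithelium, stood at 6.12, 5.10 and 6.06 against 7.89, 7.10 and 8.49 (4.19-fold). Uts2, the vasoactive peptide urotensin 2, stood at 5.61, 7.79 and 8.08 against 9.40, 8.89 and 11.55 (6.91-fold). Early array 1 was the lowest array for Nccrp1 and Uts2, and late array 3 was by far the highest for Uts2. Prom2, a prominin of epithelial protrusions, differed 3.55-fold, Rpp25, a subunit of ribonuclease P, 2.85-fold, Fam83f 2.02-fold, Rgp1, of a Rab6 exchange factor, 1.91-fold, the tyrosine phosphatase Ptpn9 1.91-fold, Cript 1.73-fold, and the oxysterol-binding protein Osbpl2 1.70-fold. Fosb, a subunit of AP-1, and the olfactory receptor Olfr323 were not detected on any early ablation array. On the background-corrected scale they were at least 1.97-fold and 1.56-fold higher in late ablation. Their log2 differences of -1.32 and -0.85 were -0.46 and -0.27 without background correction. Adjusted p-values for all 24 genes of both directions ran from 0.533 to 0.568. Since the groups did not overlap for any of the 24, leaving out 1 array could not change the sign of a difference.

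The same contrast between early and late controls, which shares no array with the ablated tumours, showed how far untreated tumours of the same 2 designs differed. It called 0 features (smallest adjusted p 0.165), with 1129 (8.5%) at unadjusted p under 0.05, 551 higher early (4.15%) and 578 higher late (4.35%), and 2183 (16.4%) whose groups did not overlap. Of the 12 genes named as higher in early ablation, 9 also averaged higher in early controls, and Tbxas1 and Rassf2 did so without overlap. Of the 12 named as higher in late ablation, 7 also averaged higher in late controls, Fam83f without overlap. Higd1b and Nccrp1 went the other way in controls, without overlap. Higd1b, Slc1a3 and Mns1 were detected on early and not on late ablation arrays, and Fosb and Olfr323 the reverse. They passed the detection filter through the group where they were high, so their direction in ablation was fixed. Higd1b stood at 4.51, 4.40 and 4.50 in early controls and 5.90, 5.51 and 5.01 in late controls, against 6.22, 5.54 and 5.75 in early and 4.89, 4.69 and 4.57 in late ablation. Nccrp1 stood at 9.22, 8.88 and 10.23 in early controls and 8.70, 8.13 and 8.21 in late controls. The test of whether the ablated and control differences differ called 0 features (smallest adjusted p 0.597, for Higd1b), with 591 (4.45%) at unadjusted p under 0.05, of which 342 (2.57%) were above 0 and 249 (1.87%) below.

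Lists of genes of cell types and pathways were described by their members' differences, with no list tested. Of 51 lists, 47 had at least 5 measured members, and no member of any list passed the adjusted threshold. The median difference was above 0 in 33 lists and below 0 in 14. An array's list level is the median over members of each member's log2 signal relative to its mean over the 6 ablated arrays. These levels did not overlap between early and late ablation for 4 of the 47 lists, where 11.5% of all single features did not overlap. The 4 were T cell, regulatory T cell and checkpoint, and TGF-beta response (higher early) and intestinal brush border (higher late). In some lists 1 member was detected in only 1 of the 2 groups; it passed the detection filter through the group where it was high, so its direction was fixed, and counts without it, added after seeing the data, are given for the lists described below. Without that member the brush border levels overlapped, and the T cell levels still did not. In bulk tumour RNA, fewer cells of a type and less RNA per cell cannot be told apart.

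**Figure D2:**
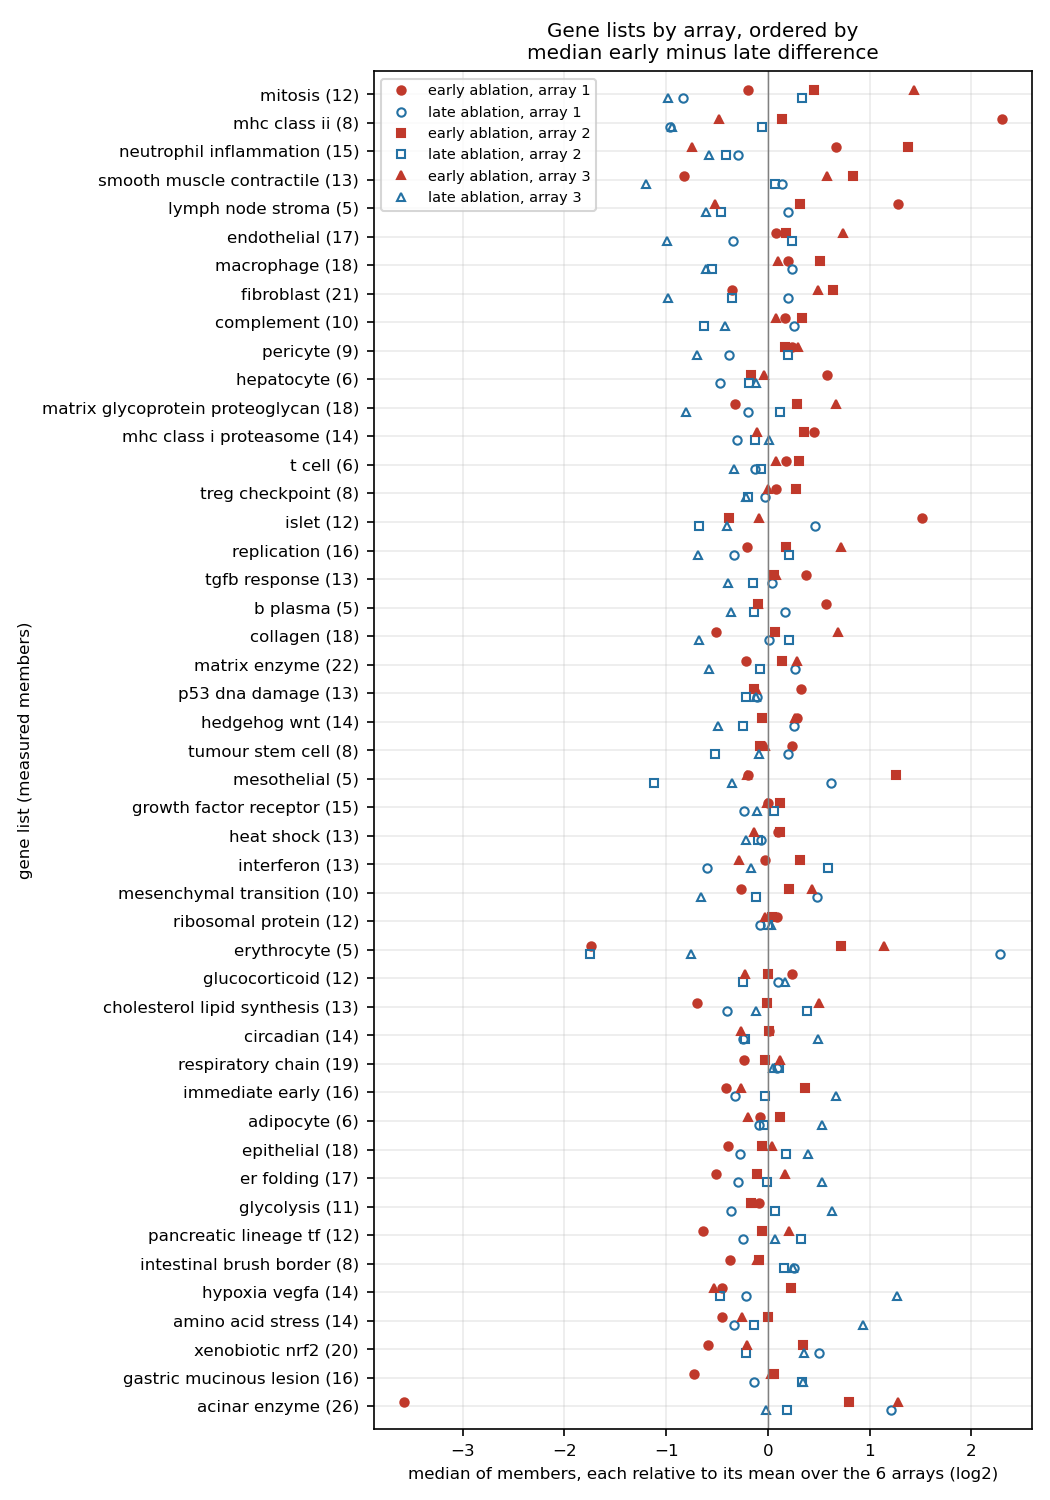
Level of each gene list on each of the 6 ablated arrays (x axis, log2, median of members relative to their 6-array mean), with lists on the y axis ordered by median difference and the number of measured members in parentheses. Filled red symbols are early and open blue symbols late ablation; early array 1 stands apart for MHC class II (2.30) and acinar enzymes (-3.58), and late array 3 for hypoxia (1.27).

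Contractile and pericyte genes averaged higher in early ablation, with wide spread. Of 13 measured smooth muscle genes 10 were higher early (median 0.73, and 0.19 without early array 2), and 1 reached unadjusted p under 0.05, against 4.04% of all features in this direction. In controls 1 of the 13 was higher early (median -0.21). Early array 1 (-0.82) and late array 3 (-1.20) were both low for the list, so the groups overlapped. Mylk, the kinase of myosin light chain, stood at 10.16, 10.94 and 10.67 in early and 9.54, 9.54 and 7.99 in late ablation (2.97-fold, adjusted p = 0.596), without overlap. Tpm1, a tropomyosin, differed by -0.21. Of 9 pericyte genes 1, Higd1b, was detected on early ablation arrays only. Of the other 8, 7 were higher early (median 0.44), whereas 1 of 8 was higher in early than in late controls (median -0.37). With Higd1b the median was 0.52, and 0.32 without early array 2. Beside Higd1b, Abcc9, a subunit of potassium channels in mural cells, stood at 5.95, 6.10 and 6.09 against 5.25, 4.94 and 4.82, again without overlap. The late signals of Abcc9 were weak, and its difference of 1.04 was 0.34 without background correction. Rgs5, a regulator of G protein signalling in pericytes, stood at 7.36, 6.67 and 6.91 against 6.00, 6.87 and 5.88, with late array 2 inside the early range.

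Fibroblast genes, which include those of cells without αSMA, averaged higher in early ablation. Of 21 members 18 were higher early (median 0.62, and 0.34 without early array 2 or 0.99 without early array 1). Unadjusted p was under 0.05 for 5 (4.04% of all features in this direction) and the groups did not overlap for 5 (5.77% of all features). Dcn, the proteoglycan decorin, stood at 12.98, 12.96 and 12.15 in early and 12.03, 10.68 and 10.16 in late ablation (3.34-fold, SE 0.538 on the log2 scale, adjusted p = 0.596). Pi16, a marker of adventitial fibroblasts, stood at 9.0, 8.75 and 8.11 against 7.03, 8.09 and 6.69. Dpt, dermatopontin, was detected on all 3 early arrays and on no late array. It was at least 1.63-fold higher early on the background-corrected scale, and its log2 difference of 1.29 was 0.51 without that correction. Without Dpt, 17 of 20 members were higher early (median 0.60). The groups did not overlap for these genes, while Thy1, a surface glycoprotein shared with T cells, overlapped widely (difference 0.33). In controls 8 of the 21 were higher early (median -0.20).

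Matrix glycoproteins averaged higher early, and the named collagens overlapped between the groups. Of 18 glycoprotein and proteoglycan genes 15 were higher early (median 0.49, and 0.22 without early array 3). Fn1, fibronectin, stood at 12.33, 11.29 and 11.47 against 10.49, 10.14 and 10.08 (2.74-fold, adjusted p = 0.573). Prelp stood at 11.05, 10.45 and 10.35 against 9.05, 10.02 and 8.92, and Bgn, biglycan, differed by 0.57; neither overlapped. For collagens, 14 of 18 were higher early with a median of 0.20, which lay between -0.12 and 0.55 when 1 array was left out. Col1a1, the main chain of type I collagen, stood at 8.52, 9.36 and 10.85 in early and 10.14, 9.70 and 8.76 in late ablation, a difference of 0.05 (SE 0.878). Col1a2 differed by 1.28 (SE 0.782), Col16a1 by 0.55, Col4a1 of basement membranes by 0.17 and Col18a1 by -0.28, each with overlap. Of 13 TGF-beta response genes 9 were higher early (median 0.31, and 0.17 without early array 1). Tgfbr3, betaglycan, a co-receptor of TGF-beta, stood at 7.36, 8.33 and 7.84 against 7.02, 5.59 and 5.74 (3.30-fold, adjusted p = 0.568). Tgfbi, a TGF-beta-induced matrix protein, differed by 0.90, both without overlap, and Ccn2 by 0.31.

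Endothelial genes averaged higher in early ablation in all 17 measured members (median 0.66, and 0.39 without early array 3). Unadjusted p was under 0.05 for 3 (4.04% of all features in this direction), and the groups did not overlap for 5 (5.77% of all features). Pecam1, the endothelial adhesion molecule CD31, stood at 7.97, 7.82 and 8.68 in early and 6.84, 7.37 and 6.39 in late ablation (2.45-fold, SE 0.426 on the log2 scale, adjusted p = 0.596), without overlap. Egfl7, secreted by endothelium, differed by 0.96 without overlap, and Esam, an adhesion molecule of tight junctions, by 0.76 with overlap. Late array 3 was the lowest for the list (-1.0) and early array 3 the highest (0.74). In controls 9 of the 17 were higher early (median 0.02).

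All 18 macrophage genes averaged higher in early ablation (median 0.66), 6 at unadjusted p under 0.05 (33.3% of the list against 4.04% of all features in this direction). The groups did not overlap for 2 of the 18, against 5.77% of all features in this direction. The list levels overlapped, with late array 1 (0.24) above early arrays 1 (0.20) and 3 (0.10). In controls 4 of the 18 were higher early (median -0.20). Lyz2, the lysozyme of macrophages and neutrophils, stood at 13.51, 12.91 and 12.59 in early and 12.71, 10.82 and 10.86 in late ablation (2.91-fold, adjusted p = 0.596), with late array 1 inside the early range. Cd14, the co-receptor of lipopolysaccharide, stood at 12.78, 12.19 and 11.37 against 10.96, 11.60 and 10.37, and Apoe, apolipoprotein E, at 13.14, 12.71 and 12.58 against 12.43, 12.06 and 12.23, the latter without overlap. Of 10 complement genes 8 were higher early (median 0.57, and 0.30 without late array 3 or 0.99 without late array 1), with differences from -1.04 to 1.42. Of them 3 averaged higher early (4.04% of all features) and 1 higher late (3.64% of all features) at unadjusted p under 0.05. Without overlap, 2 lay higher early (5.77% of all features) and 1 higher late (5.76% of all features). Cfp, properdin, a stabiliser of the alternative pathway, stood at 11.53, 11.80 and 11.03 against 10.84, 10.04 and 9.57, and C4b differed by 1.42, both without overlap. All 15 neutrophil and inflammation genes were higher early (median 0.99, and 0.36 without early array 2 or 1.75 without early array 3), but early array 3 (-0.75) was the lowest of the 6 arrays for the list and early array 2 (1.38) the highest. Ltf, lactoferrin of neutrophil granules, stood at 12.76, 12.48 and 10.40 against 10.13, 10.36 and 10.80. Trem1, an activating receptor of myeloid cells, differed by 1.23 in ablated tumours and by 1.04 in controls.

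Antigen presentation genes averaged higher in early ablation, and 1 array set the size for MHC class II. All 8 class II genes were higher early (median 1.08), with early array 1 at 2.30 and the other early arrays at 0.14 and -0.48; without early array 1 the median was 0.58, and without early array 3 it was 1.68. Cd74, the invariant chain, stood at 12.56, 9.67 and 8.83 in early and 7.97, 9.31 and 8.49 in late ablation. H2-Ab1, a class II beta chain, showed the same array pattern at 11.81, 9.40 and 8.45 against 7.80, 9.02 and 8.20. H2-DMb1, which helps load peptides, stood at 8.69, 7.71 and 7.37 against 7.19, 6.79 and 6.92, without overlap, and H2-DMb2 differed by 1.16. H2-Ea was not detected on any of the 6 arrays. Of 14 class I and immunoproteasome genes 13 were higher early (median 0.45), and 10 of 14 were higher in early than in late controls (median 0.36). B2m, the class I light chain, stood at 13.33, 13.05 and 12.51 against 12.40, 12.38 and 12.16, and Psmb9, an immunoproteasome subunit, differed by 0.71, both without overlap (adjusted p = 0.63 and 0.596).

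Few lymphocyte genes were detected, and those measured mostly averaged higher early. Measured were 6 of 16 T cell genes, 8 of 15 regulatory T cell and checkpoint genes, 5 of 16 B and plasma cell genes and 2 of 13 cytotoxic genes. Of the 6 T cell genes 1 was detected on early ablation arrays only, and the other 5 were higher early (median 0.50; 2 of 5 in controls). Thy1, also a member of the fibroblast list, is 1 of the 5 (difference 0.33 with overlap, and -0.15 without late array 3). The median of the 6 was 0.42, with array levels of 0.18, 0.31 and 0.08 against -0.13, -0.07 and -0.34. Zap70, a kinase of the T cell receptor, differed by 0.60 (adjusted p = 0.63) with overlap. Of the 8 regulatory T cell and checkpoint genes 7 were higher in early ablation (median 0.40) and 7 in early controls (median 0.14). In ablated tumours 0 of the 8 reached unadjusted p under 0.05, against 4.04% of all features in the higher early direction. Foxp3, the transcription factor of regulatory T cells, stood at 9.16, 9.15 and 9.29 against 9.06, 9.05 and 8.76, a difference of 0.24 (SE 0.188) without overlap. Ctla4, the checkpoint receptor, stood at 5.13, 6.51 and 5.0 against 4.40, 5.40 and 4.55, a difference of 0.76 (SE 0.404, adjusted p = 0.678), with late array 2 inside the early range. Ctla4 was detected on 1 of the 3 late arrays, and its difference was 0.28 without early array 2 and 1.36 in the authors' processed values. Of the 5 B and plasma cell genes 4 were higher early and 1 lower (median 0.27, and 0.13 without early array 1 or 0.52 without early array 3). Sdc1, syndecan 1, a proteoglycan of plasma cells and epithelium, was the lower one, at 8.89, 9.33 and 9.42 against 9.69, 9.998 and 9.77, without overlap. Pou2af1, a coactivator of B cells, stood at 6.90, 6.02 and 5.85 against 5.05, 4.84 and 5.05, and Ltb, lymphotoxin beta, at 8.92, 7.14 and 6.69 against 5.81, 6.50 and 5.87, both without overlap. The late signals of Pou2af1 were weak, and its difference of 1.28 was 0.46 without background correction. In controls Pou2af1 also averaged higher early by 0.94 and Ltb by 1.25. Cxcl13, the chemokine of B cell follicles, stood at 8.90, 10.04 and 5.57 against 7.11, 4.49 and 4.59, and early array 3 fell inside the late range.

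Cell cycle genes averaged higher in early tumours with and without GCV. All 12 mitosis genes were higher in early ablation (median 1.18, and 0.72 without early array 3), 6 at unadjusted p under 0.05 against 4.04% of all features in this direction. The groups overlapped for each of the 12, whereas 5.77% of all features lay higher early without overlap. For the list, late array 2 (0.34) lay above early array 1 (-0.19). All 12 were higher in early controls (median 0.96), 5 at unadjusted p under 0.05 against 4.15% of all features. Top2a, topoisomerase of dividing cells, stood at 6.64, 7.22 and 8.38 against 5.93, 6.78 and 4.97 in ablated tumours, a difference of 1.52 (SE 0.538, adjusted p = 0.618), and differed by 1.46 in controls. Bub1b, a spindle checkpoint kinase, differed by 1.24 and 0.92, Cdc20, an activator of the anaphase-promoting complex, by 1.30 and 0.94, and Cenpa, the centromeric histone, by 1.27 and 0.60. Late array 2 lay inside the early range for each of these 4 genes. Of 16 replication genes 13 were higher early (median 0.37, and 0.19 without late array 3 or 0.69 without late array 2; controls 0.62), among them the helicase subunits Mcm3 (0.90), Mcm4 (0.51) and Mcm5 (1.15), with overlap.

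Most epithelial and mucinous genes averaged higher in late ablation. Of 18 epithelial genes 15 were lower early (median -0.23, and -0.14 without early array 1 or -0.44 without late array 1). Krt20, a keratin of gastric and intestinal epithelium, stood at 11.18, 12.38 and 12.46 in early and 12.77, 12.77 and 12.83 in late ablation, without overlap (1.72-fold, adjusted p = 0.63). The ductal keratin Krt19 stood at 12.91, 13.14 and 13.51 against 13.37, 13.90 and 13.72, and Krt8 differed by -0.23. These keratins were detected on all 6 arrays, which are labelled as PDAC tumours. Of 16 gastric and mucinous lesion genes 13 were lower early (median -0.56, and -0.18 without early array 1), whereas 13 of 16 were higher in early than in late controls (median 0.25). Galnt6, which starts mucin glycans, stood at 4.58, 4.98 and 5.01 against 5.23, 5.90 and 6.02, without overlap. These signals were weak, and the difference of -0.86 was -0.28 without background correction. Gkn2, gastrokine 2, differed by -0.69 (-0.21 without early array 1) and the trefoil peptide Tff2 by -0.22. Pgc, the gastric zymogen pepsinogen C, was among the 3 of 16 that averaged higher early, at 10.75, 12.57 and 8.17 in early against 7.59, 6.17 and 6.66 in late ablation, a 12.9-fold difference (log2 3.69, SE 1.00, adjusted p = 0.568) without overlap, and averaged lower in early than late controls (-1.59).

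Brush border and detoxification genes mostly averaged lower early. For the brush border list 5 of 8 genes were lower early (median -0.43, and -0.17 without early array 1), with array levels of -0.37, -0.09 and -0.11 against 0.26, 0.16 and 0.25. Cdx1, a homeobox factor of intestinal epithelium, was not detected on any early ablation array. It was at least 1.48-fold higher in late ablation on the background-corrected scale, and its log2 difference of -0.93 was -0.31 without that correction. Without Cdx1, 4 of 7 members were lower early (median -0.41) and the array levels overlapped. Cdx1 averaged lower in early controls too (-0.87). Lgals4, a galectin of the gut, stood at 13.25, 13.81 and 13.88 against 14.03, 14.31 and 14.36, without overlap, and Alpi, intestinal alkaline phosphatase, differed by -1.09. Of 20 xenobiotic and NRF2 genes 15 were lower early (median -0.56, and -0.33 without early array 1), 4 at unadjusted p under 0.05 against 3.64% of all features in this direction. Cyp2c65, a cytochrome P450, stood at 8.13, 10.57 and 9.97 against 10.76, 10.92 and 11.33 (2.73-fold, adjusted p = 0.618), and Aldh1a3, a retinaldehyde dehydrogenase, at 7.57, 9.82 and 9.65 against 10.81, 10.61 and 10.10. Early array 1 was lowest for both, and the groups did not overlap for either gene. The glutathione transferases Gsta1 and Gsta4 differed by -0.95 and -0.54, and probes of the Gsta family may share signal.

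**Figure D3:**
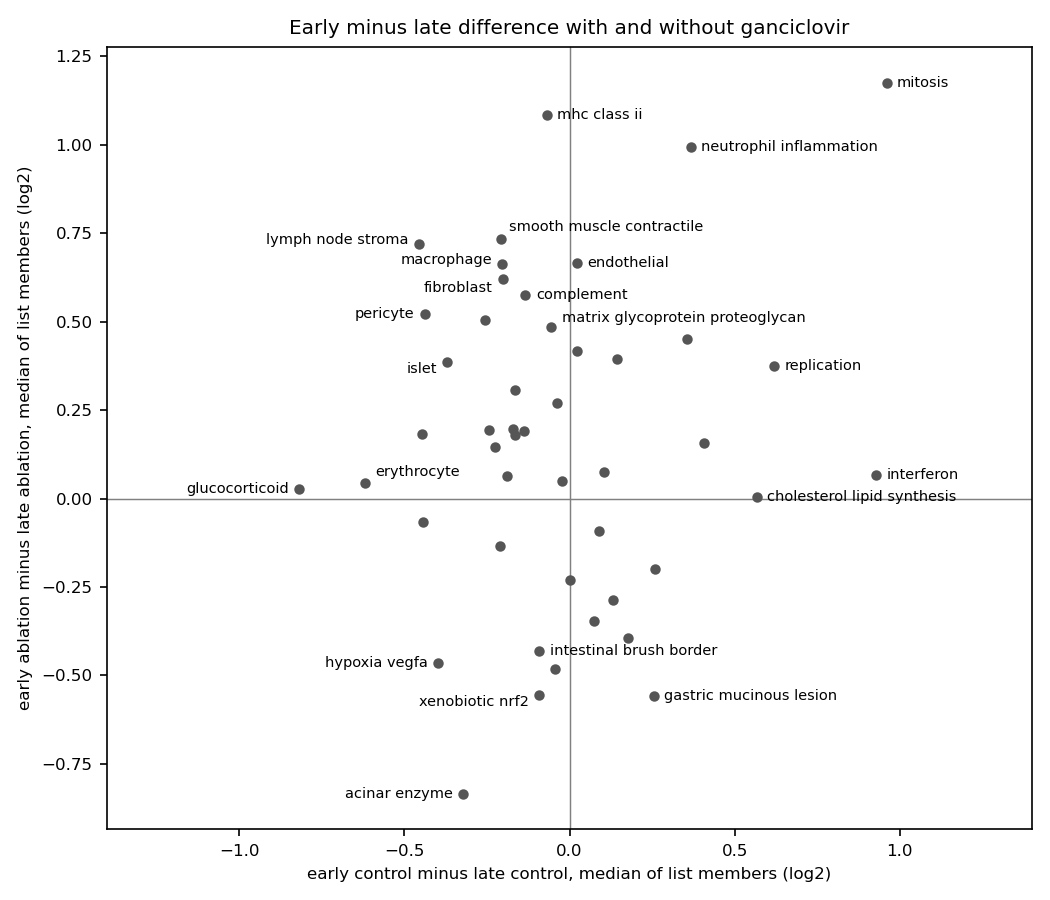
Median early minus late difference of each list's members in control arrays (x axis, log2) and in ablated arrays (y axis, log2), 1 point per list with at least 5 measured members. Mitosis lies high on both axes (0.96 and 1.18), macrophage and pericyte lists are above 0 only on the y axis, and the interferon and glucocorticoid lists are far from 0 only on the x axis.

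Acinar and islet genes differed mainly by 1 array. Of 26 acinar genes 18 were lower early (median -0.83), but early array 1 stood at -3.58 and the other early arrays at 0.80 and 1.27. The late arrays stood at 1.21, 0.18 and -0.02. Without early array 1 the median was 0.39 higher in early ablation. Amy2a5, pancreatic amylase, stood at 11.18, 14.74 and 15.04 in early and 14.77, 14.66 and 14.15 in late ablation. Pnliprp2, a lipase, stood at 10.97, 12.51 and 12.23 against 12.84, 12.51 and 12.67. The islet list was also set by early array 1 (1.51), with a median of 0.38 that became -0.05 without it. Sst, somatostatin, stood at 8.99, 7.29 and 7.01 against 7.42, 5.68 and 6.21. Erythrocyte genes were highest on late array 1 (2.28) and lowest on late array 2 (-1.75) and early array 1 (-1.74).

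Most hypoxia, glycolysis and amino acid stress genes averaged higher in late ablation, and all 3 medians were closer to 0 without late array 3. All 14 hypoxia genes were lower early (median -0.46), with 1 of 14 at unadjusted p under 0.05 (3.64% of all features in this direction) and 0 of 14 without overlap (5.76% of all features). Late array 3 stood at 1.27, the other late arrays at -0.22 and -0.47, and the median without late array 3 was 0.06. Car9, a carbonic anhydrase induced by hypoxia, stood at 11.24, 10.99 and 11.30 in early and 11.28, 12.54 and 12.45 in late ablation (difference -0.92, SE 0.362, adjusted p = 0.63). Vegfa, the vascular growth factor, stood at 10.01, 10.79 and 9.73 against 9.69, 10.33 and 11.84, a difference of -0.44 (SE 0.477) that became 0.17 without late array 3. In controls Vegfa differed by -1.30, without overlap, and the hypoxia median was -0.40. Of 11 glycolysis genes 9 were lower early (median -0.34, and -0.04 without late array 3), among them Pgk1, phosphoglycerate kinase (difference -0.50), and Gapdh (difference -0.39, without overlap). Of 14 amino acid stress genes 11 were lower early (median -0.48, and -0.15 without late array 3). Asns, asparagine synthetase, stood at 10.04, 10.93 and 11.30 against 11.24, 11.79 and 12.23 (1.99-fold, adjusted p = 0.596), with late array 1 just inside the early range, and Chac1, a glutathione-degrading enzyme, stood at 5.46, 5.86 and 6.28 against 6.65, 5.84 and 8.61, a difference of -1.17 that was -0.38 without late array 3 and -1.77 without late array 2. Of 16 immediate early genes 5 were higher early and 11 lower (median -0.14, and 0.14 without late array 3). Without Fosb, detected in late ablation only, 5 of 15 were higher early (median -0.13). Beside Fosb, the transcription factor Klf4 of the immediate early list stood at 8.31, 10.16 and 9.70 against 10.56, 10.26 and 10.72, without overlap.

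**Figure D4:**
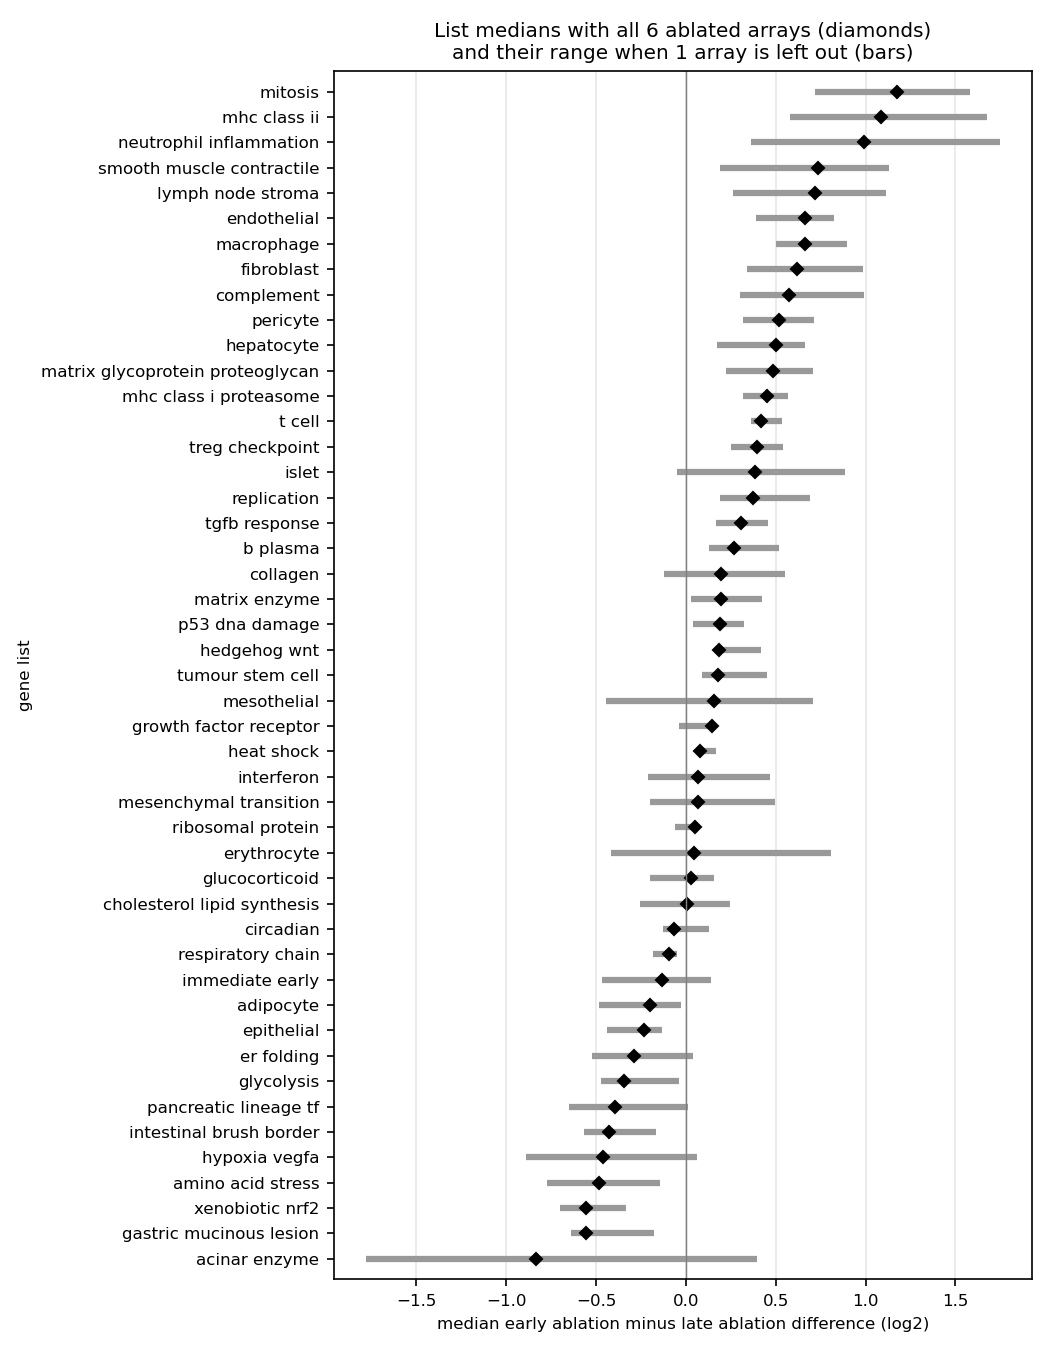
Median early minus late ablation difference of each list with at least 5 measured members (x axis, log2). Diamonds are the medians with all 6 ablated arrays and grey bars run from the lowest to the highest median when 1 ablated array is left out; the bars of the acinar, hypoxia, collagen and islet lists cross 0, and those of the macrophage, endothelial, fibroblast and mitosis lists do not.

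Genes of mesenchymal transition and of growth signals gave mixed results. Of 10 transition genes 5 were higher early (median 0.06, from -0.20 without late array 3 to 0.50 without late array 1). Vim, vimentin, stood at 10.30, 10.53 and 10.58 against 10.22, 8.82 and 8.91, and Zeb2, a repressor of epithelial genes that stromal cells also use, differed by 0.61, both without overlap. Snai1, the transcription factor Snail, stood at 5.35, 6.40 and 6.82 against 7.68, 6.19 and 5.26, a difference of -0.18 (SE 0.710). Of 14 hedgehog and Wnt genes 8 were higher early (median 0.18, and 0.42 without late array 1), and 2 of 14 were higher in early than late controls (median -0.45). Wnt4, a Wnt ligand, stood at 10.80, 10.56 and 9.99 in early and 10.92, 8.62 and 9.59 in late ablation, with late array 1 the highest. Its difference was 0.74 in ablated tumours (0.20 without late array 2, 1.35 without late array 1) and -1.96 in controls (unadjusted p = 0.00186 for the difference of the differences, adjusted p = 0.999), and Sfrp2, a secreted Wnt modulator, by 0.80 and -0.36. The growth factor receptors Fgfr1 and Fgfr2 averaged higher early by 0.63 and 1.22 (adjusted p = 0.568 and 0.622), both without overlap, while 8 of 15 genes of their list were higher early (median 0.15, and -0.04 without early array 3).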

How the data were processed

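Per the labels, RNA was extracted with Trizol, labelled with biotin and hybridised to Illumina mouse bead arrays; GenomeStudio is named in the submitters' processing notes without a version. The deposited table of 12 arrays gives per probe an intensity, neither background subtracted nor normalized, and a detection p-value against the array's negative controls, per the file headers. The deposited value table, also intensity, was a straight-line function of these signals on each array (largest residuals 0.0862 to 0.102), with column medians of 16.5 to 28.2; how slope and offset were chosen is not known.

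Intensities were background corrected (normexp from detection p-values, offset 16), quantile normalized over the 12 arrays and put on the log2 scale with limma 3.58.1 in R 4.3.3. Of 45281 probes, 34885 carry 1 symbol, 18 several and 10378 none in the platform annotation. The probe with the highest mean stood for a symbol, and other probes stood alone. A feature was kept when its detection p-value was below 0.05 on 3 of the 6 ablated arrays. Group means of 4 groups of 3 arrays were fitted with lmFit and eBayes (two-sided, Benjamini-Hochberg). On arrays, their number limits the precision. An at-least fold sets undetected signals to the lowest detected signal of their array, after background correction and normalization. The text names Acta2 and a few fixed genes, the 12 genes per direction with the smallest p, and, per list of at least 5 measured members, 2 with the smallest p and 2 with the highest mean signal. The members, lists and rules were chosen with earlier results of these data known. The fit was tested on simulated data. The 3 arrays with anti-CTLA4 treatment were not used here. Same-numbered early and late ablated arrays did not deviate together (correlations 0.0566, 0.0502 and -0.181), so replicate numbers were not treated as pairs in the main fit. Same-numbered ablated and control arrays were not checked in this way, so pairing or a batch shared by number between those groups was not tested.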

Additional observations from a re-analysis of the deposited data

How the results depend on the processing

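Under every alternative that kept all 12 arrays in the fit or only the 6 ablated ones, 0 features were called between early and late ablation. Leaving out 1 array gave 0 to 2 calls there and 0 to 2 for the difference of differences; the 2 came without early ablation array 3 and were 2 probes with no symbol, ILMN_1245146 and ILMN_2450155, named after their values were seen. ILMN_1245146 stood at 11.73, 12.23 and 4.86 in early and 5.57, 4.86 and 4.73 in late ablation. ILMN_2450155 stood at 9.15, 8.71 and 4.55 against 5.42, 4.67 and 4.64. Features at unadjusted p under 0.05 were 2142 with no detection filter, where 29453 were tested, and 647 (without early array 1) to 1395 (without late array 2) when 1 array was left out, 660 of them without late array 3. A replicate block gave 1183, with 0 called and a smallest adjusted p of 0.431. Between controls, 230 features were called with array weights and 5 with the authors' processed values; the cause was not tested. Snai1 became 0.30 with array weights. When 1 array was left out, Tpm1 ranged from -0.326 to 0.0171, Thy1 from -0.15 to 0.68, Col1a1 from -0.59 to 0.58, Col4a1 from -0.0896 to 0.53, Tff2 from -0.38 to 0.0278, Vegfa from -0.91 to 0.17, Amy2a5 from -1.57 to 0.36 and Snai1 from -0.74 to 0.47. Slide as a block was not run, because the headers used here give no slide. Leaving out 1 array moved the difference of 49 of 110 named genes by over 1.5 times. No other named gene changed sign under any alternative.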

Other observations

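The 12 glucocorticoid-responsive genes were all lower in early than in late controls (median -0.82), 7 at unadjusted p under 0.05 against 4.35% of all features in this direction. In ablated tumours 6 of 12 were lower early (median 0.03, and -0.20 without late array 2). Tsc22d3, a glucocorticoid-induced leucine zipper protein, stood at 11.40, 9.96 and 10.39 in early controls and 11.58, 11.66 and 12.25 in late controls, against 12.47, 11.49 and 11.32 in early and 11.72, 11.15 and 11.26 in late ablation. Of 13 interferon genes 12 were higher in early controls (median 0.93) and 7 in early ablation (median 0.07, and -0.03 with a normexp offset of 50, or 0.47 without late array 2). Usp18, a negative regulator of interferon signalling, differed by 0.93 in controls and by -0.56 in ablated tumours. Of 13 cholesterol and lipid synthesis genes 12 were higher in early controls (median 0.57), and the ablated median was 0.00 with a mean of -0.04 (median -0.26 without late array 1, 0.24 without early array 1).

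Of 13 heat shock genes 7 were higher early and 6 lower (median 0.08). The small chaperone Hspb1, the member with the highest difference, stood at 10.49, 10.42 and 9.18 in early and 9.44, 9.08 and 8.44 in late ablation (difference 1.04, SE 0.351). It differed by -0.72 in controls. Haptoglobin, Hp, an acute-phase protein of the hepatocyte list, stood at 11.11, 12.51 and 11.94 against 11.18, 9.30 and 8.84, with late array 1 inside the early range. Of 19 respiratory chain genes 15 were lower early (median -0.09, and -0.19 without late array 3), and Sdhb, a subunit of complex II, differed by -0.48 without overlap. Of 14 circadian genes 5 were higher early and 9 lower (median -0.07, and 0.13 without late array 3). Nr1d1, a repressor of the circadian clock, stood at 5.45, 6.01 and 5.96 against 7.18, 6.16 and 7.90, without overlap.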
